A study of Capra hircus with 12 samples.

Results

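The genes described here are 56 factors that build ribosomes in the nucleolus, chosen by symbol from a fixed list that leaves out genes with RRP names. All 56 symbols were found, each in 1 row, among 20326 genes measured in the cashmere-bearing follicles of goats. The list was set by gene identity and not by measured values, although results of these data were known when it was drawn up. RNA came from secondary hair follicles, the follicles that grow the fine undercoat, taken from female and male goats of the species Capra hircus at 1.5 years of age. May and September stand for anagen, when the follicle grows. November and December stand for catagen, when it regresses, and February and March for telogen, when it rests. No month holds more than 1 stage, so differences between stages cannot be told apart from differences between calendar months. Each month has 1 female and 1 male library, 12 libraries in all and 4 per stage, with no treatment or genetic change named. How many goats stand behind a library, and whether the same goats were sampled again, is not given, so each p-value reflects only how these libraries vary, which may be technical in part.

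A ribosome begins in the nucleolus, where RNA polymerase I copies ribosomal DNA into a long precursor RNA. Small nucleolar RNA-protein particles (snoRNPs) then guide chemical modification of that precursor, a large assembly called the small-subunit processome folds and cuts the part that becomes the small subunit, and a separate set of factors assembles the large subunit. Growing, dividing cells such as those of the hair matrix need many ribosomes, and the pathway is a known target of the growth regulators MYC and mTOR.

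The deposited values are headed TPM, a transcript-abundance unit that corrects for transcript length, so levels of different genes can be set side by side. Their library sums ran from 904623 to 1127797, so they had been rescaled between libraries. Read depth is unknown. The 56 genes together made up 0.262% to 0.323% of the summed values. NPM1 alone took 20.7% to 27.1% of that share, with a mean level of 692 over the 12 libraries, and NOL6 had the lowest mean, 8.80. All 56 passed the filter on low values (at least 1 in at least 2 libraries), as did 16095 genes in total. Follicle identity was checked on fixed markers, which do not separate secondary from primary follicles. The sheath keratins KRT25 and KRT27 and the basal keratins KRT5 and KRT14 were abundant throughout, with lowest library values of 1054, 739, 3249 and 2836. Some markers of the upper epidermis were abundant too: KRT10 at 536 to 1947, KRTDAP at 1319 to 3393, KRT1 at 273 to 1398 and DSG1 at 680 to 951. Others were lower: IVL at 44.7 to 216, LOR at 29.7 to 113 and KRT2 at 7.31 to 18.9. The signal differed in composition between stages. Mitochondrial genome transcripts took a mean of 1.83% in anagen, 2.985% in catagen and 9.25% in telogen, and ribosomal protein transcripts 20.0%, 23.9% and 15.0%. In the March male library mitochondrial genome transcripts took 4.63% of the signal, against 9.88% to 11.8% in the other 3 telogen libraries. Ribosomal protein transcripts took 17.9% there against 12.8% to 15.8%.

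**Figure D1:**
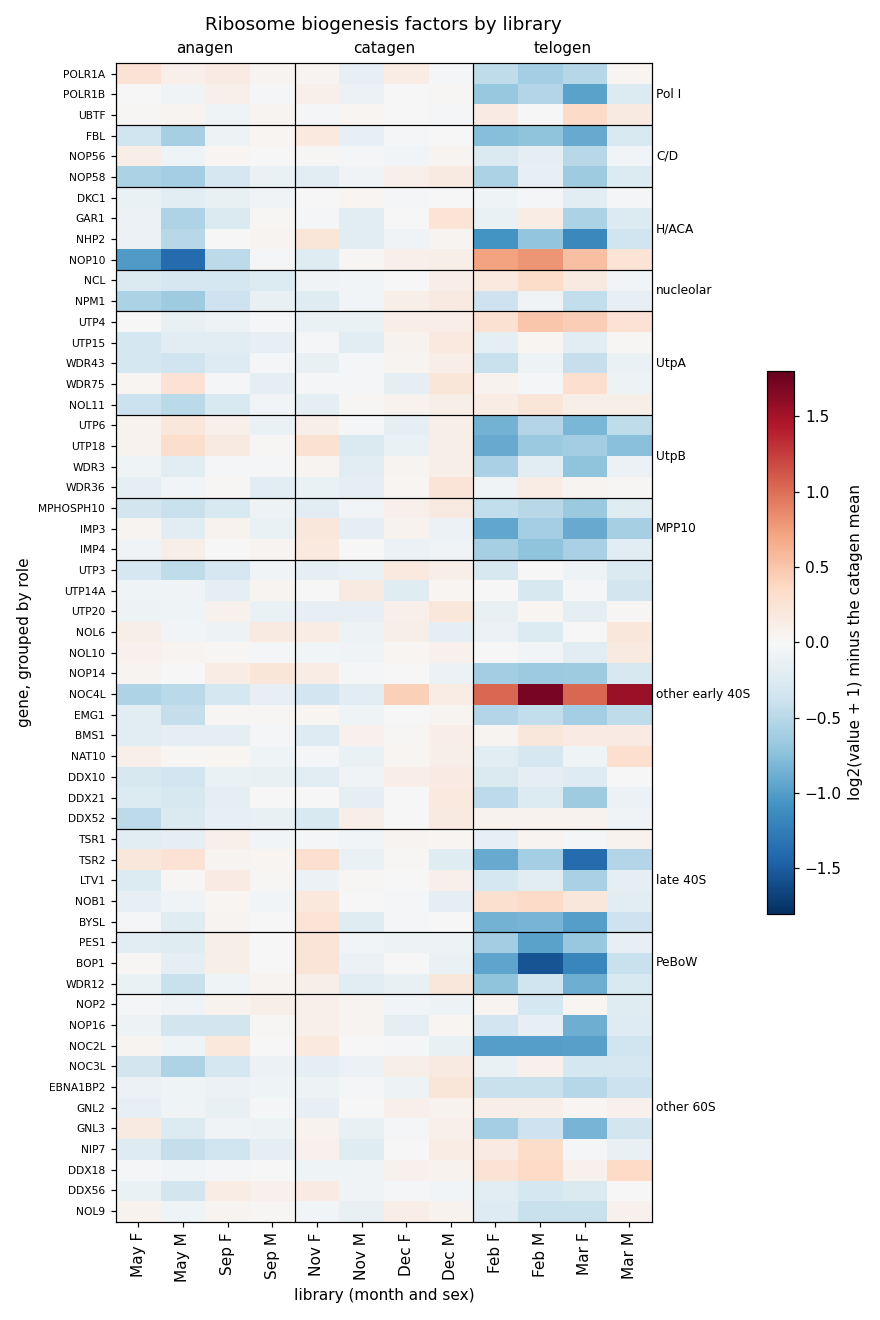
Each row is 1 gene and each column 1 library (F, female; M, male), coloured by log2(value + 1) minus that gene's catagen mean; black lines part the stages and the roles. Most rows are blue in the 4 telogen columns, NOC4L and NOP10 are red there, and the March male column is paler than the other telogen columns for most of the blue rows.

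Telogen was compared with catagen to see what happens to ribosome assembly genes when the regressed follicle comes to rest. The pathway did not move as a block. Of the 56 genes 24 fell (42.9%) and 3 rose (5.36%), with 29 not passing. Over all genes tested 19.0% fell and 24.5% rose, 43.6% in all (limma, adjusted p below 0.05 by Benjamini-Hochberg over 16095 genes). The median log2 change was -0.22 for the 56 genes and 0.07 for all genes tested. Log2 changes here and below are on the log2(value + 1) scale, which understates the change of low genes. BOP1 fell the most, by 1.02, and NOC4L rose the most, by 1.33. Each of these 2 genes was the only one of the 56 to change at least 2-fold in its direction, where 2.80% of all genes fell and 2.19% rose that far. In bulk tissue, fewer cells of a type and less RNA per cell cannot be told apart. Between the same stages the summed level of 9 hair shaft and inner root sheath genes (of 18 listed) ranged from 13090 to 19810 in catagen and from 3790 to 12810 in telogen. Singly, 7 of these 9 fell and 1 rose. The 10 cell division genes, of which 6 fell and 1 rose, summed to 323 to 384 in catagen and 226 to 313 in telogen. The 6 T cell markers summed to 26.0 to 38.4 and 51.9 to 78.1, and the 6 Schwann cell markers to 83.6 to 99.4 and 115 to 199. None of these markers was at 0 in any library, and their part in the result was not tested.

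RNA polymerase I genes came first in the order of work. POLR1B, the second-largest catalytic subunit, read 17.4 and 14.9 in November (female then male, as in every pair below), 16.1 and 16.4 in December, 9.73 and 10.9 in February and 7.85 and 13.5 in March. Every telogen library lay below every catagen library, and the gene fell by 0.60 (SE 0.127, adjusted p = 0.00299, n = 4 per stage). POLR1A, the largest subunit, read 14.3, 12.3, 15.1 and 13.4 in catagen and 9.72, 8.67, 9.27 and 14.1 in telogen. The March male overlapped catagen, and POLR1A fell by 0.39 (SE 0.129, adjusted p = 0.0277), a call lost when the February male or any of the November, December, February and March females was left out, with scaling without mitochondrial and ribosomal protein transcripts and with month means (largest adjusted p 0.0784). UBTF, the factor that opens and marks active ribosomal DNA, did not follow them: its level was 55.5 ± 0.993 (SD, n = 4) in catagen and 62.4 ± 6.26 in telogen, a change of 0.16 (SE 0.0847, adjusted p = 0.140).

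The box C/D snoRNPs carry FBL, the methyltransferase fibrillarin, on a scaffold of NOP56 and NOP58. FBL read 172, 137, 148 and 153 in catagen and 89.5, 91.5, 80.5 and 126 in telogen. The stages did not overlap, and FBL fell by 0.67 (SE 0.157, adjusted p = 0.00523). NOP58 went from 86.6 ± 9.72 to 65.8 ± 11.02 (SD, n = 4), a fall of 0.40 (SE 0.142, adjusted p = 0.0366) with overlapping stages. That call was lost in 9 of 20 alternatives (largest adjusted p 0.108). These were quantile normalization, scaling without mitochondrial and ribosomal protein transcripts, month means, leaving out both March libraries, and leaving out either December library, the November male or the female of February or March. NOP56 read 129, 124, 123 and 131 in catagen and 106, 113, 89.3 and 122 in telogen, just short of overlap, and changed by -0.24 (SE 0.101, adjusted p = 0.0653); without the March male it passed.

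The box H/ACA snoRNPs convert uridine to pseudouridine with 4 core proteins that bind the guide RNA together, and these 4 transcripts parted. DKC1, the pseudouridine synthase dyskerin, barely varied, at 47.8 ± 0.954 in catagen and 45.0 ± 2.20 (SD, n = 4) in telogen, a change of -0.08 (SE 0.0725, adjusted p = 0.361). GAR1 changed by -0.20 (SE 0.159, adjusted p = 0.324). NHP2 read 84.2, 62.7, 69.2 and 74.6 in catagen and 33.9, 43.7, 31.9 and 56.3 in telogen and fell by 0.82 (SE 0.175, adjusted p = 0.00307), with no overlap. NOP10, the smallest core protein, went the other way. It read 96.8 and 115 in November, 119.7 and 121 in December, 186 and 195 in February and 164 and 134 in March, so that all 4 telogen libraries were above all 4 of catagen, but its change of 0.57 (SE 0.235) did not pass (adjusted p = 0.0638). The ratio of NOP10 to NHP2, which does not depend on how libraries were scaled, was 0.818 and 0.838 in May and 1.12 and 1.48 in September. It was 1.15 and 1.83 in November, 1.73 and 1.62 in December, 5.49 and 4.47 in February and 5.15 and 2.37 in March. This pair was picked after the values were seen, so the ratio is given as a description with no test.

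The abundant nucleolar proteins NPM1 (nucleophosmin), a chaperone, and NCL (nucleolin), which binds RNA, did not pass. NPM1 read 685, 773, 862 and 896 in catagen and 619.9, 768, 585 and 719.6 in telogen, a change of -0.26 (SE 0.156, adjusted p = 0.196). NCL was 170.7 ± 10.1 and 191.0 ± 21.0 (SD, n = 4), a change of 0.16 (SE 0.0973, adjusted p = 0.208) that passed with quantile normalization (0.31, adjusted p = 0.0256).

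Within the small-subunit processome counts were taken by subcomplex, to be read beside all genes, of which 19.0% fell and 24.5% rose. The list holds only part of the UtpA and UtpB subcomplexes, and further subunits were counted with the other small-subunit genes below. Of the 5 UtpA genes listed, whose products bind the precursor first and link it to transcription, 1 rose and 0 fell. The share that rose, 20%, was near that of all genes. UTP4 read 15.8, 15.9, 18.8 and 18.9 in catagen and 21.0, 24.8, 23.8 and 21.0 in telogen, a rise of 0.37 (SE 0.0922, adjusted p = 0.00737) without overlap. The other UtpA genes listed, UTP15, WDR43, WDR75 and NOL11, changed by between -0.26 and 0.14. Of the 4 UtpB genes listed, whose products join next, 3 fell (75%) and 0 rose. UTP18 read 36.6, 25.1, 27.7 and 32.6 in catagen and 15.6, 18.6, 19.3 and 17.6 in telogen, and the female and male of each telogen month were all below every catagen library (a fall of 0.74, SE 0.12, adjusted p = 8.52e-04). UTP6 fell by 0.66 (SE 0.115; 58.0 ± 5.47 to 36.4 ± 5.27, SD, n = 4; adjusted p = 0.00115). WDR3 fell by 0.40 (adjusted p = 0.0257), a call lost when the December male or any of the November, December, February and March females was left out (largest adjusted p 0.0772), and WDR36 stood at 0.04 (adjusted p = 0.789). Whether UtpA and UtpB differed from each other was not tested.

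All 3 genes of the MPP10 complex, which the processome needs for its early cuts, fell, beside 19.0% of all genes. IMP3 read 44.4, 34.1, 40.2 and 35.6 in catagen and 19.6, 24.9, 20.1 and 25.1 in telogen, with a wide gap between the stages (a fall of 0.76, SE 0.116, adjusted p = 6.15e-04). IMP4 fell by 0.52 (SE 0.112, adjusted p = 0.00328) and MPHOSPH10 by 0.46 (SE 0.115, adjusted p = 0.00746). Among the remaining 13 early small-subunit genes 3 fell (23.1%, near the share of all genes), 1 rose (7.69%) and 9 did not pass. NOP14 fell by 0.55 (SE 0.101; 16.2 ± 1.18 to 10.8 ± 1.52; adjusted p = 0.00146), the methyltransferase gene EMG1 by 0.51 (SE 0.105; 72.9 ± 2.999 to 51.0 ± 2.66; adjusted p = 0.0026, SD and n = 4 for both genes) and the RNA helicase gene DDX21 by 0.37 (adjusted p = 0.0305). DDX21 lost its call when any 1 of the libraries just named for WDR3 was left out (largest adjusted p 0.0898). UTP3, UTP14A, UTP20, NOL6, NOL10, BMS1, NAT10, DDX10 and DDX52 stayed between -0.17 and 0.14.

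NOC4L, the partner of NOP14 in the nucleolar steps of small-subunit assembly, was the only 1 of these 13 genes that rose. Its change was the largest of the 56. It read 34.4 and 38.0 in November, 59.2 and 48.1 in December, 90.7 and 146 in February and 91.1 and 131 in March. The lowest telogen library was above the highest catagen library, and both males were above both females in telogen. The rise was 1.33 (SE 0.189, adjusted p = 4.86e-04; 44.9 ± 11.2 to 114.6 ± 28.2, SD, n = 4), and it held in all 20 alternatives. The ratio of NOC4L to NOP14, a pair again picked after seeing the values, was 1.77 to 2.09 in anagen, 1.93 to 3.68 in catagen and 8.91 to 14.8 in telogen, with no overlap between telogen and either other stage. DDX51, the gene next to NOC4L in the RefSeq annotation of goat assembly ARS1.2, had means of 9.41, 8.87 and 9.02 in anagen, catagen and telogen.

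**Figure D2:**
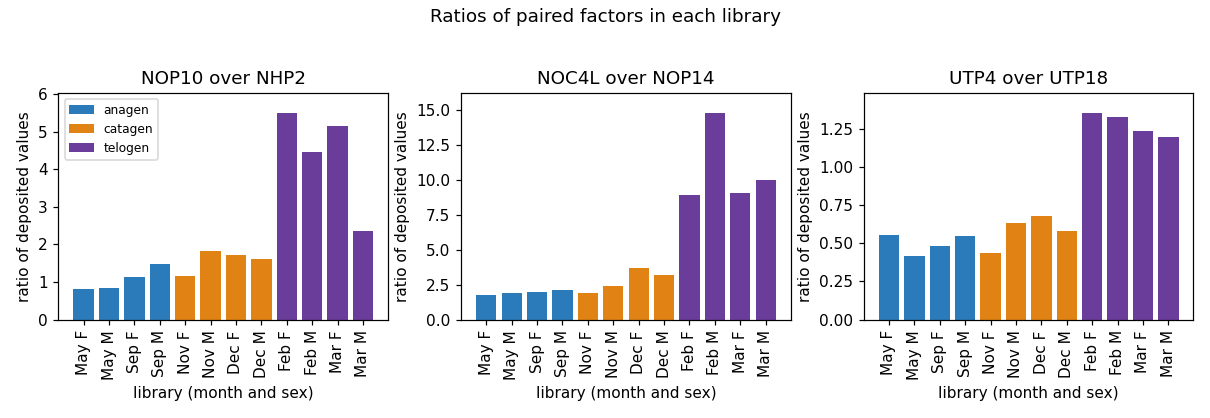
Bars give the ratio of the deposited values of 2 genes in each library (F, female; M, male), coloured by stage, each axis starting at 0. In the 4 telogen libraries NOP10 is 2.37 to 5.49 times NHP2, NOC4L is 8.91 to 14.8 times NOP14 and UTP4 is 1.19 to 1.35 times UTP18, above every anagen and catagen library in each panel. Each pair sets a gene called higher in telogen than in anagen over one called lower, so this separation is no test. Some ratios not shown overlapped, such as FBL over NOP58 (1.18 to 1.72 in telogen, 1.59 to 2.295 in catagen). Others not shown also set telogen apart from both other stages. NOL11 over UTP6 was 1.065 to 1.434 in telogen and 0.439 to 0.850 in the other stages. BOP1 over PES1 was 0.312 to 0.421 in telogen and 0.490 to 0.588 in the other stages.

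Late maturation of the small subunit, which is completed in the cytoplasm, was also split. Of its 5 genes 3 fell (60%) and 0 rose, beside 19.0% and 24.5% of all genes. TSR2, which escorts a ribosomal protein to the new subunit, read 21.4, 15.8, 17.4 and 14.7 in catagen and 8.70, 10.9, 5.97 and 11.58 in telogen. The stages did not overlap, and TSR2 fell by 0.85 (SE 0.17, adjusted p = 0.0022). BYSL (bystin) fell by 0.76 (SE 0.136; 18.4 ± 2.60 to 10.5 ± 2.27, SD, n = 4; adjusted p = 0.00127). LTV1 fell by 0.32 (SE 0.111, adjusted p = 0.0344), a call lost when either December library, the November male or the female of February or March was left out, without both March libraries, with month means and with scaling without mitochondrial and ribosomal protein transcripts (largest adjusted p 0.11). NOB1, the endonuclease of the last cut, and the GTPase-like factor TSR1 did not pass, at 0.16 (adjusted p = 0.282) and -0.02 (adjusted p = 0.869).

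For the large subunit, all 3 genes of the PeBoW complex fell, beside 19.0% of all genes. This complex, of PES1, BOP1 and WDR12, is needed to process the large-subunit precursor and to let cells go on dividing. BOP1 read 23.5, 18.4, 19.9 and 18.1 in catagen and 9.81, 6.10, 8.29 and 14.8 in telogen, a fall of 1.02 (SE 0.189, adjusted p = 0.00155) without overlap, the March male being the highest of the 4. PES1 fell by 0.60 (SE 0.151; 39.1 ± 4.48 to 25.8 ± 6.60; adjusted p = 0.0071) and WDR12 by 0.56 (SE 0.15; 14.5 ± 2.03 to 9.57 ± 2.08; adjusted p = 0.00993, SD and n = 4 for both genes). Of the other 11 large-subunit genes 4 fell (36.4%), 1 rose (9.09%, beside 24.5% of all genes) and 6 did not pass. NOC2L, an early assembly factor, read 41.0, 36.0, 35.6 and 32.9 in catagen and 17.7, 17.7, 17.9 and 28.1 in telogen (a fall of 0.83, SE 0.137, adjusted p = 9.26e-04). The 3 other telogen libraries were almost equal and the March male lay between them and catagen.

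GNL3, the GTPase nucleostemin found in stem and dividing cells, fell by 0.54 (SE 0.122, adjusted p = 0.00436), EBNA1BP2 by 0.43 (SE 0.0865, adjusted p = 0.00247) and NOP16 by 0.40 (SE 0.148, adjusted p = 0.0433). NOP16 lost its call when the November or December male, or any female other than that of December, was left out, without both May or both March libraries, with quantile normalization and with scaling without mitochondrial and ribosomal protein transcripts (largest adjusted p 0.155). DDX18, an RNA helicase, rose by 0.26 (SE 0.0841; 32.8 ± 1.88 to 39.6 ± 3.67, SD, n = 4; adjusted p = 0.0232), a call lost when either November library or the February male was left out and with month means (largest adjusted p 0.091). NOP2, NOC3L, GNL2, NIP7, DDX56 and NOL9 changed by between -0.24 and 0.08. In the RefSeq annotation 9 of the 56 genes were found to overlap another measured gene, among them TSR2 (OCRL and APLN), BOP1 (SCX) and NOC2L (SAMD11). DKC1 has no known chromosome there and was not checked. Whether counting used strand is not given in the sources used here, so reads of such partners may not be told apart. From catagen to telogen the means of SAMD11 went from 12.8 to 8.72 and those of SCX from 0.733 to 0.490, the direction of NOC2L and BOP1. SNUPN, which overlaps IMP3, went from 17.1 to 12.5, CCDC115, which overlaps IMP4, from 19.7 to 17.9, and IDH3B, which overlaps NOP56, from 73.0 to 53.7, also the direction of their partners. OCRL (9.63 to 15.9) and APLN (0.978 to 1.75) went opposite to TSR2, and LPCAT3 (62.9 to 64.1) opposite to EMG1. The remaining pairs were SRR with TSR1 (7.56 to 11.07) and DNALI1 with GNL2 (1.88 to 3.57). Of the members in these pairs NOP56, TSR1 and GNL2 did not pass. The part of shared reads in these members' values was not tested.

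**Figure D3:**
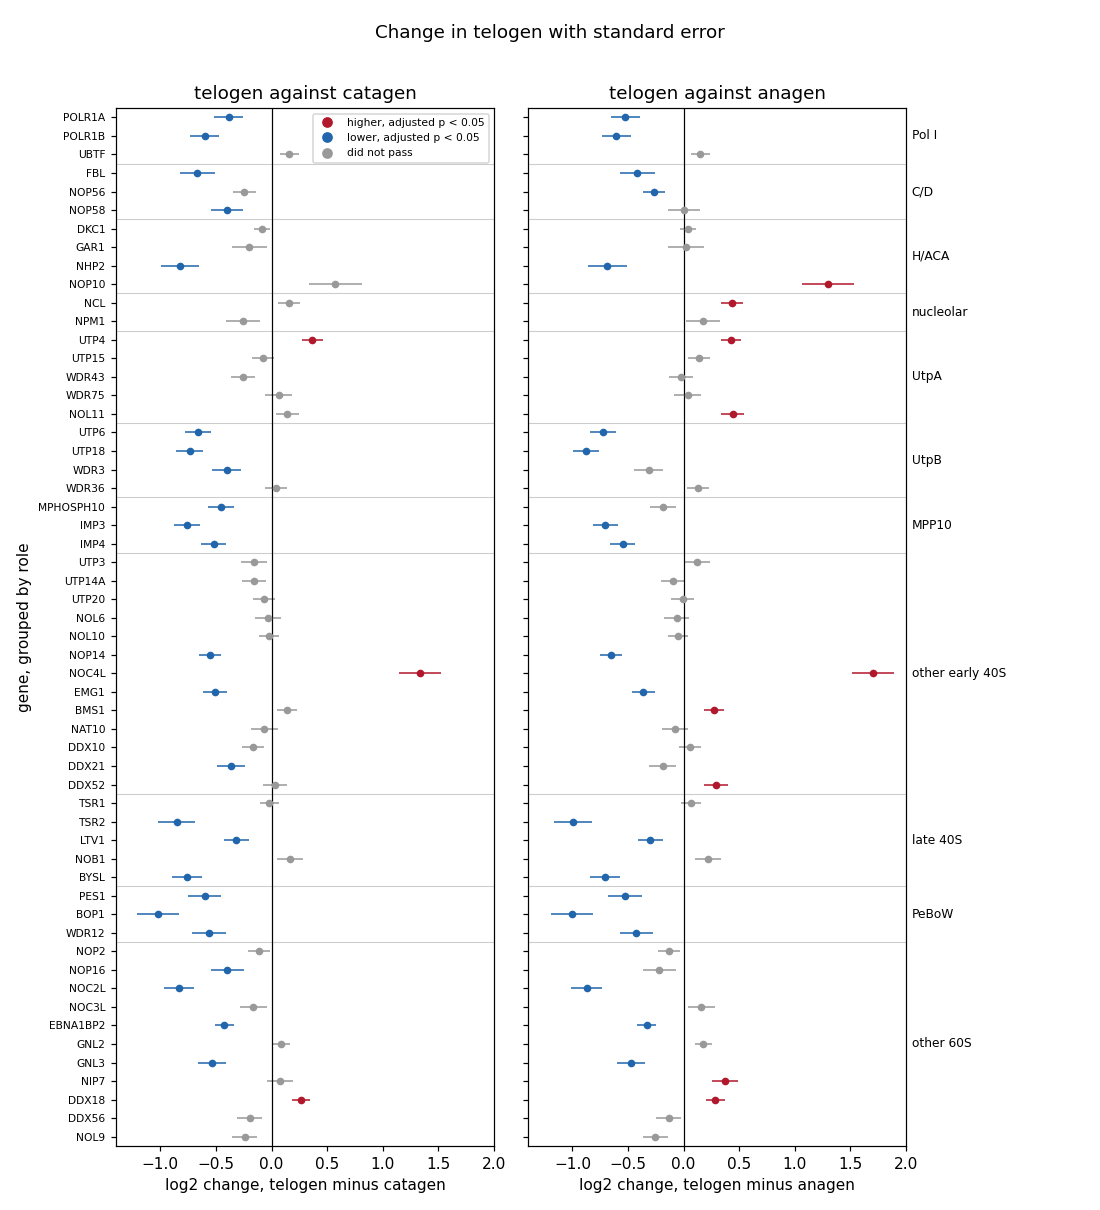
Points are log2 changes of telogen minus catagen (left) and telogen minus anagen (right) with standard errors, 1 row per gene grouped by role, red or blue where limma's adjusted p was below 0.05 and grey where it was not. On the left 24 genes are blue and 3 red; on the right 20 are blue and 9 red.

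Telogen was also compared with anagen, which sets rest against growth. The telogen libraries are the same as above, so this comparison shares them and is not independent of the first. Of the 56 genes 20 were lower in telogen (35.7%) and 9 were higher (16.1%). Over all genes tested 23.7% were lower and 29.2% higher, 52.9% in all (limma, adjusted p below 0.05). At least 2-fold differences were found for 2 genes that were higher (NOC4L and NOP10) and 1 that was lower (BOP1), where 2.76% and 5.23% of all genes differed that far. The median change was -0.09 for the 56 genes and 0.07 for all genes. When libraries were scaled to their sum without mitochondrial and ribosomal protein transcripts, 15 were lower and 11 higher. The number higher was 5 with months averaged and 4 without both May libraries. Skeletal muscle markers (6 of 9 listed) were high in May alone. They summed to 152 and 153 in May, 4.93 and 6.38 in September and 4 to 7.76 in telogen. None of the 6 was at 0 in these stages, and their part in the result was not tested.

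Among the genes that were lower, those of polymerase I and of both subunits recurred. TSR2 read 20.0 and 20.8 in May and 17.8 and 17.6 in September, all above its telogen values, and changed by -0.996 (SE 0.17, adjusted p = 5.66e-04). BOP1 was 19.8 ± 1.57 (SD, n = 4) in anagen and changed by -1.01 (SE 0.189, adjusted p = 9.22e-04), UTP18 was 33.5 ± 3.19 and changed by -0.88 (SE 0.12, adjusted p = 2.01e-04), and NOC2L was 37.4 ± 2.99 and changed by -0.87 (SE 0.137, adjusted p = 3.71e-04). UTP6 changed by -0.73 (SE 0.115, adjusted p = 3.83e-04) and BYSL by -0.71 (SE 0.136, adjusted p = 0.00106). POLR1A and POLR1B changed by -0.53 (SE 0.129, adjusted p = 0.00456) and -0.60 (SE 0.127, adjusted p = 0.00187), and UBTF by 0.15 (SE 0.0847, adjusted p = 0.148). The other genes that were lower, by -0.27 to -0.70, were FBL, NOP56, NHP2, IMP3, IMP4, NOP14, EMG1, LTV1, PES1, WDR12, EBNA1BP2 and GNL3.

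FBL (-0.42, SE 0.157, adjusted p = 0.0398) lost its call in 11 of 20 alternatives (largest adjusted p 0.11): quantile normalization, scaling without mitochondrial and ribosomal protein transcripts, month means, and leaving out any 1 library of September, December or February or the female of May or March. NOP56 (-0.27, SE 0.101, adjusted p = 0.0399) kept its call in 7 of 20. It lost it (largest adjusted p 0.188) under the same alternatives, with the November male in place of the February male, and also without both May or both March libraries. EMG1 (-0.36, adjusted p = 0.0112) lost its call with month means (adjusted p = 0.0571) and EBNA1BP2 (-0.33, adjusted p = 0.00626) with the scaling just named (adjusted p = 0.0692). LTV1 (-0.30, adjusted p = 0.0367) lost its call in 8 of 20 alternatives (largest adjusted p 0.146), namely month means, the same scaling, and leaving out both March libraries, the May male, either September library or the female of February or March. WDR12 (-0.43, adjusted p = 0.0294) also lost its call in 8 (largest adjusted p 0.0885), namely quantile normalization, the same scaling, and leaving out both March libraries, either September library or the female of May, February or March. NOP58 stood at 0.00 (SE 0.142, adjusted p = 0.993), DKC1 at 0.04 (SE 0.0725, adjusted p = 0.647), GAR1 at 0.02 (SE 0.159, adjusted p = 0.918) and NPM1 at 0.17 (SE 0.156, adjusted p = 0.365).

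The 9 genes that were higher in telogen than in anagen were led by NOC4L and NOP10. NOC4L read 29.7 and 31.2 in May and 35.2 and 39.6 in September and was higher by 1.70 (SE 0.189, adjusted p = 1.19e-04). NOP10 read 55.1 and 42.6 in May and 80.7 and 111 in September, its widest spread within a stage, and was higher by 1.30 (SE 0.235, adjusted p = 7.81e-04). NCL, almost level over anagen at 140.3 ± 3.65 (SD, n = 4), was higher by 0.44 (SE 0.0973, adjusted p = 0.00259). NOL11 was higher by 0.44 (SE 0.102, adjusted p = 0.0032), UTP4 by 0.43 (SE 0.0922, adjusted p = 0.00218) and NIP7, a large-subunit factor, by 0.37 (SE 0.115, adjusted p = 0.016). DDX52 (0.29), DDX18 (0.28) and BMS1 (0.27) completed the 9. BMS1 lost its call with month means, without both May or both March libraries, and when either May library, the September female or the February male was left out (largest adjusted p 0.152). DDX52 lost its call with month means, without both May or both March libraries, and when either May library, either February library or the female of December or March was left out (largest adjusted p 0.29). NOL11, NIP7 and DDX18 lost theirs without both May libraries, and NIP7 and DDX18 also with month means (largest adjusted p 0.0578, 0.0928 and 0.0802).

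**Figure D4:**
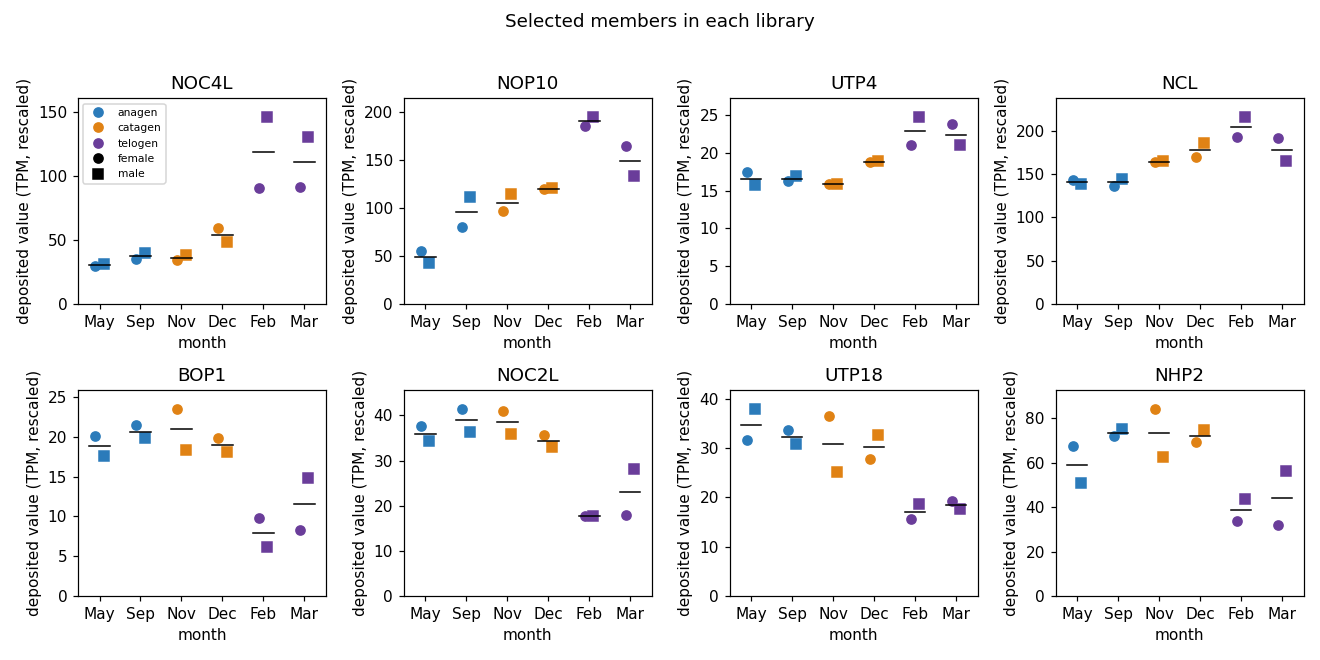
Deposited values of 8 genes in every library by month, circles for females and squares for males, coloured by stage, with a line at the mean of the 2 libraries of a month and axes starting at 0. The top row shows genes that were higher in telogen than in anagen and the bottom row genes that were lower; the March male square lies nearest to the catagen values for NOP10, NCL, BOP1, NOC2L and NHP2.

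Catagen was compared with anagen to see whether the pathway changed while the follicle regressed. None of the 56 genes passed in limma, where 0.0559% of all genes did, all of them lower in catagen (0.0373% at least 2-fold lower), and 12 of the 56 (21.4%) had an unadjusted p below 0.05, beside 15.7% of all genes. The median change was 0.08, beside -0.02 for all genes, and 40 of the 56 (71.4%) were positive, beside 46.5%. The 12 genes were all positive: NOP10 (0.72, SE 0.235), NPM1 (0.43, SE 0.156), NOP58 (0.40, SE 0.142), NOC3L (0.33), NOL11 (0.30), NIP7 (0.30), UTP3 (0.28), NCL (0.28, SE 0.0973), MPHOSPH10 (0.27), DDX52 (0.25), DDX10 (0.23) and UTP15 (0.21), with adjusted p between 0.263 and 0.316. NPM1 read 539 and 510.5 in May, 618 and 728 in September, 685 and 773 in November and 862 and 896 in December, so its 2 stages overlapped. Of the genes named whatever their result, FBL (0.25), DKC1 (0.13), GAR1 (0.22), PES1 (0.08), BOP1 (0.01), UBTF (-0.01), POLR1B (-0.00), NOP56 (-0.02) and POLR1A (-0.14) had adjusted p of 0.395 to 0.997.

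Across the months, 19 of the 56 genes (33.9%) differed in limma's F test over the 6 months, next to 32.7% of all genes tested. The mean was highest in December for 20 genes, in November and February for 9 each, in May and September for 7 each and in March for 4. It was lowest in February for 20, in May for 17, in March for 11, in November for 5, in September for 3 and in December for none. These are ranks of means of 2 libraries. Ranks over all genes tested were not taken, so whether these months mark the 56 genes is not known. NOP10 and NOC4L had the widest ranges, 3.90 and 3.89 times between their lowest month, May, and their highest, February. BOP1 followed at 2.63 times (20.9 in November, 7.96 in February), and NOL10 varied least, 1.09 times. Leaving out 1 library moved the number that differed to 9 (February male), 10 (May female), 11 (May male, and likewise December male), 12 (September female) or 30 (March male).

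Of the steps between consecutive sampled months, February against December and May against March held genes that passed. From December to February 14 genes fell (25%) and 2 rose (3.57%), against 7.69% and 8.90% of all genes. BOP1 fell by 1.19 (SE 0.26, adjusted p = 0.0236), NOC2L by 0.91 (SE 0.185, adjusted p = 0.0212) and NHP2 by 0.89 (SE 0.258, adjusted p = 0.0443), while NOC4L rose by 1.09 (SE 0.232, adjusted p = 0.0226) and NOP10 by 0.66 (SE 0.191, adjusted p = 0.0435). With the replicate number, which marks sex, as a block 14 fell and 1 rose. With 2 libraries a month these counts rested on single libraries: leaving out either December library or the February male left 0 that fell and 0 that rose, and leaving out the February female left 1 and 1. The numbers were 7 and 1 without either May library, 8 and 2 without either September library and 24 and 3 without either March library.

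From March to May 6 genes rose (10.7%) and 4 fell (7.14%), against 13.9% and 13.4% of all genes. TSR2 rose by 1.19 (SE 0.252, adjusted p = 0.0125), UTP18 by 0.88 (SE 0.186, adjusted p = 0.0124) and UTP6 by 0.78 (SE 0.175, adjusted p = 0.0147). NOC4L fell by 1.81 (SE 0.232, adjusted p = 0.00425), NOP10 by 1.59 (SE 0.191, adjusted p = 0.00327) and NOL11 by 0.55 (SE 0.125, adjusted p = 0.0153). The numbers that rose and fell were 0 and 2 without either May library, 2 and 2 without the March female and 17 and 5 without the March male. Skeletal muscle markers summed to 152 and 153 in May and to 4 and 7.41 in March, and their part in this step was not tested. In September against May, November against September, December against November and March against February none of the 56 passed in limma, with 3 (5.36%), 0, 2 (3.57%) and 1 (1.79%) at an unadjusted p below 0.05, beside 9.77%, 1.86%, 3.65% and 3.95% of all genes. Of all genes 0.137% (0.0311% higher), 0.0186%, 0% and 0.00621% passed. NOP10 had the smallest unadjusted p of these, a rise of 0.95 (SE 0.191, adjusted p = 0.142) from May to September. Male against female, with month as a block, gave none of the 56 and 0.0559% of all genes, and 1 (1.79%) at an unadjusted p below 0.05, beside 7.36% of all genes. That gene was NOP58 (0.19, male minus female, SE 0.0821, adjusted p = 0.67).

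The March male library stood nearest to catagen for most genes that fell. It was the highest of the 4 telogen libraries in 20 of the 24 genes (83.3%) that fell from catagen, and in 75.5% of all genes that fell. Without it 27 genes fell and 5 rose from catagen, and 22 were lower and 10 higher than in anagen.

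Other genes of the pathway, from lists set by name, were split in the same comparison of telogen with catagen, where 19.0% of all genes fell and 24.5% rose. Of 16 further polymerase I genes measured (20 listed, some under older and newer symbols for the same gene) 10 fell (62.5%) and 1 rose (6.25%), the most abundant of those that passed being the shared subunits POLR2L (-0.91, adjusted p = 0.00748), POLR2F (-0.41) and POLR2E (-0.37). Of 30 further small-subunit genes 12 fell (40%) and 5 rose (16.7%). The most abundant of those that passed were UTP23 (0.83, adjusted p = 0.00114; 93.3 ± 11.3 to 168.9 ± 36.0, SD, n = 4), SNU13 (0.57, adjusted p = 0.00521), a protein of the box C/D particle, both higher, and NOL7 (-0.54, adjusted p = 0.00643). Of 43 further large-subunit genes 18 fell (41.9%) and 5 rose (11.63%), of which the most abundant were EIF6 (-0.56), which keeps new large subunits from joining small ones, GLTSCR2 (-0.73) and GTPBP4 (0.43). In the nuclear exosome, which trims precursor RNA, 6 of 16 genes fell (37.5%) and 4 rose (25%, near the share of all genes), led in level by EXOSC9 at 0.45, MPHOSPH6 at 0.46 and EXOSC10 at 0.40. Of 12 snoRNP assembly genes 4 fell (33.3%) and 1 rose (8.33%), with RUVBL1 at -0.52, PIH1D1 at -0.39 and NAF1 at 0.47.

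The 8 RRP-named genes and the cytosolic ribosomal proteins give the scale of the change in neighbouring sets. Of the RRP genes 7 fell (87.5%) and 0 rose, with a median of -2.16. Among 75 ribosomal proteins measured 48 fell (64%) and 1 rose (1.33%), with a median of -0.78, beside -0.22 for the 56 genes. These differences between lists were not tested. MYC, a transcription factor known to drive ribosome production, was 27.3 ± 6.50, 38.4 ± 7.56 and 52.7 ± 8.31 (SD, n = 4) in anagen, catagen and telogen. It was higher in telogen than in anagen by 0.94 (SE 0.174, adjusted p = 8.63e-04) and stood 0.45 above catagen without passing (SE 0.174, adjusted p = 0.0505). MAX, its partner, rose from catagen by 0.64 (SE 0.161, adjusted p = 0.00738). Of 16 growth regulators measured 4 fell (25%) and 3 rose (18.8%) between those stages, near the shares of all genes. Their changes ran from -0.89 to 0.81, with a median of 0.11.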

How the data were processed

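The authors made the deposited signal values, 1 per gene and library and headed TPM per the file headers, with tools that include kallisto 0.46.1 and sleuth 0.30.0 per the submitters' processing notes. Library sums differ, so the values were treated as rescaled, by steps not given in the sources used here, as is the genome build. Depth is unknown, so the precision comes from replicates alone. Symbols are those in the files, and 20294 of 20326 genes matched RefSeq (ARS1.2) by gene number; no promoter or protein sequence was used here.

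Values were analysed as log2(value + 1), keeping genes with at least 1 in at least 2 libraries. Moderated linear models with a mean-variance trend (limma 3.58.1, R 4.3.3) were fitted over all 12 libraries with 1 group per stage, or 1 group per month; the comparison of sexes had a month block. Benjamini-Hochberg adjustment ran over all genes tested, with a threshold of 0.05. The code was tested on simulated data. The members and lists were chosen with earlier results of these data known. Named in full were FBL, NCL, NPM1, NOP56, NOP58, DKC1, GAR1, POLR1A, POLR1B, UBTF, PES1 and BOP1 whatever their result, the 6 largest rises and falls per stage comparison, and the 3 largest per month comparison and for sex; others complete a count or role. From the other lists, at most the 3 most abundant genes that passed are named, and MYC. Alternatives were quantile normalization, scaling without mitochondrial and ribosomal protein transcripts, an added constant of 0.1, no filter, a replicate block, month means and every library left out; leaving out both May or both March libraries was added after the data were seen.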

Additional observations from a re-analysis of the deposited data

Results flagged for a closer look

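A search of 84 groups of 4 libraries (the genes named in full and 3 shares of the signal, in each stage) for 1 library far from the rest found 4; about 1 group in 20 is picked out by chance. In telogen the March male stood apart for NOC2L (28.06, the others 17.68 to 17.89) and for the share of the 56 genes in the signal (0.323%, the others 0.271% to 0.279%). In catagen the November female stood apart for PES1 (45.8, the others 36.5 to 37.4), and the December female for the share of ribosomal protein transcripts (20.9%, the others 24.7% to 25.1%).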

How the results depend on the processing

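The number of members lower in telogen stayed within 1.5 times under every alternative: 18 to 27 against catagen, where 18 of the 24 kept their call in all 20 alternatives, and 15 to 22 against anagen, where 14 of 20 did. Members higher than in catagen were 5 with quantile normalization and 2 to 5 with a library left out; members higher than in anagen were 5 with month means, 4 without both May libraries and 7 to 10 with a library left out. From December to February members that rose were 1 when scaled without mitochondrial and ribosomal protein transcripts, 1 with the replicate block and 0 to 3 with a library left out, and those that fell 0 to 24. From March to May 0 to 17 rose and 2 to 5 fell, and the F test gave 9 to 30. No member passed in catagen against anagen, in the other month steps or between the sexes under any alternative tried. Among the members named, directions turned only for some that did not pass: GAR1 against catagen without both March libraries (0.0083); against anagen without both May libraries NPM1 (-0.0034), NOP58 (-0.19) and GAR1 (-0.086), and with a library left out NOP58 (-0.080 to 0.095) and GAR1 (-0.089 to 0.15). In catagen against anagen they were NOP56 (0.025 scaled; -0.054 to 0.011 with a library left out), POLR1B (0.033 quantile, 0.045 scaled; -0.034 to 0.036 with a library left out), UBTF (0.038 scaled, 0.014 without both May; -0.040 to 0.0061 with a library left out), PES1 (-0.049 without both May) and BOP1 (-0.053 without both May; -0.067 to 0.052 with a library left out). The cause was not tested. The replicate number marks sex, and same-numbered libraries deviated together (r over 0.1) in 9 of 15 month pairs, with r from -0.255 to 0.44. The main stage and month fits did not take the numbers as pairs. With the number as a block, 25 were lower and 3 higher than catagen, and 20 and 9 against anagen.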

Other observations

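Some members lie close together in the RefSeq annotation of ARS1.2, a pattern looked for after their values were seen. UTP4, NIP7 and NOB1 are on 1 chromosome in that order, with 4 protein-coding genes between the first pair and 5 between the second. Their means in anagen were 16.6 for UTP4, 22.6 for NIP7 and 23.5 for NOB1, and in telogen 22.7, 29.8 and 27.8. UTP4 passed against both other stages, NIP7 only against anagen and NOB1 against neither. SNTB2 and CHTF8, the genes on either side of UTP4, had telogen means of 51.6 and 33.5 beside 41.3 and 26.9 in anagen. Beside NIP7, COG8 had 21.6 and 19.9 and TMED6 9.35 and 7.37. Beside NOB1, NQO1 had 11.8 and 14.0 and WWP2 11.56 and 14.5, so the neighbours in this stretch went in both directions. WDR12 and NOP58, with 3 protein-coding genes between them, had catagen means of 14.5 and 86.6 and telogen means of 9.57 and 65.8. TSR2 and UTP14A, with 7 between them, had catagen means of 17.3 and 68.6 and telogen means of 9.29 and 61.3, and of these 2 only TSR2 passed. No test was made of position.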
